A study of Mus musculus with 51 samples.

Results

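The genes described here are 10 genes that mature fat cells use to take up, carry, store and release fat or to signal to other tissues: Adipoq, Fabp4, Lpl, Cfd, Cd36, Plin1, Lep, Pparg, Retn and Lipe. They were chosen by name, and a member was measured where a probe set was annotated to that symbol alone. This gave 15 probe sets for 8 of the 10 genes, out of 34944 probe sets for 18192 genes in the whole series. Cfd (adipsin, a complement protease that fat cells secrete) and Plin1 (a coat protein of the lipid droplet) had no such probe set and were not analysed here. Of the 15 probe sets 14 passed the filter on low values and were tested, and the single Pparg probe set did not.

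A mammary gland is a branching epithelium embedded in a fat pad, so RNA of a whole gland holds RNA of fat cells, and the fat pad is displaced as epithelium or tumor fills it. In the fat cell, the nuclear receptor PPARγ (Pparg) turns on the genes of fat storage. Lipoprotein lipase (Lpl) releases fatty acids from circulating triglyceride, the transporter CD36 carries them in, the fatty acid binding protein FABP4 carries them through the cytoplasm, and hormone-sensitive lipase (Lipe) releases them again from the droplet. Adiponectin (Adipoq), leptin (Lep) and resistin (Retn) are hormones that fat cells secrete. Some of these genes are not private to fat cells: Fabp4 is also made by capillary endothelium and macrophages, Cd36 by endothelium, macrophages and milk-producing epithelium, and Lpl by macrophages.

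The arrays profiled mammary tumors of Wap-Cre;Etv6-NTRK3 mice, in which a Cre recombinase driven by the Wap milk protein promoter turns on a conditional knock-in of the Etv6-NTRK3 fusion oncogene. The same Cre opens a Rosa-Stop-lacZ reporter, which marks the recombined cells. The labels give the groups as follows. Unsorted wild-type mammary glands came from 5 mice without the oncogene. Sorted hyperplasia was lacZ-positive hyperplastic mammary epithelial cells of 4 mice, and sorted primary tumor was lacZ-positive cells of 8 tumors from 6 mice. Unsorted primary tumor was whole tissue of 22 tumors from 14 mice, with 1 tumor (CR115) arrayed repeatedly and averaged here. Sorted transplanted tumor was lacZ-positive cells of 7 tumors after 1 to 4 passages through RAG2-/- mice, which lack T and B cells, and came from 5 mice of origin. Unsorted transplanted tumor was whole tissue of 4 tumors grown in RAG2-/- mice from only 2 mice of origin, CR90 and CR115. Any host tissue in a transplanted tumor is therefore that of the RAG2-/- mouse. The labels give no age, parity or transplantation site, and no wild-type gland was sorted, so in any comparison of sorted cells with glands the sort and the lesion cannot be told apart.

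Array medians lay between 42.9 and 57.8 intensity units. All levels below are log2 intensities with values under 32 set to 32, so that 5 is the floor, and all differences are on this log2 scale, in which differences of low genes are understated. The spiked-in hybridization controls averaged 12.84 and 12.22 on sorted hyperplasia replicates 1 and 2, against 9.57 to 11.58 on the other 49 arrays. Member calls and list counts that rest on hyperplasia are given with and without these arrays. Glands carried the other cell types too: the mean log2 level of 8 fibroblast markers was 10.37 to 11.16 in glands and 5.56 to 10.36 in unsorted primary tumors, and that of 11 endothelial markers was 7.66 to 8.86 against 5.85 to 7.41.

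Checked against the glands, the label of these genes held only in part. Adipoq, the most fat-specific hormone of the set, read 5.17, 6.86, 5.82, 5.00 and 6.03 (log2) in wild-type glands 1 to 5, so it was at the floor in 1 gland and low in the others. Pparg read 5.21, 5.85, 5.10, 5.00 and 5.37 in the same glands, and was at the floor in every replicate of the other 5 groups. Lep was above the floor in 2 of 5 glands and reached 5.31 at most. Fabp4, Lpl and Cd36, in contrast, were above the floor in all 5 glands on every probe set, reaching 13.09, 10.94 and 11.87 on the brightest one. Gland 2 gave the highest gland value of Adipoq, Pparg, Lep, Retn, Fabp4, Lpl and Cd36 alike, and gland 4 the lowest of Adipoq, Fabp4 and Cd36. Retn was above the floor in all 5 glands, at 5.99 to 7.18, and averaged 6.69 there and 6.70 in sorted primary tumors. With Adipoq, Lep and Pparg low or at the floor even in glands, the set is described gene by gene and not as a measure of fat cells.

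**Figure D1:**
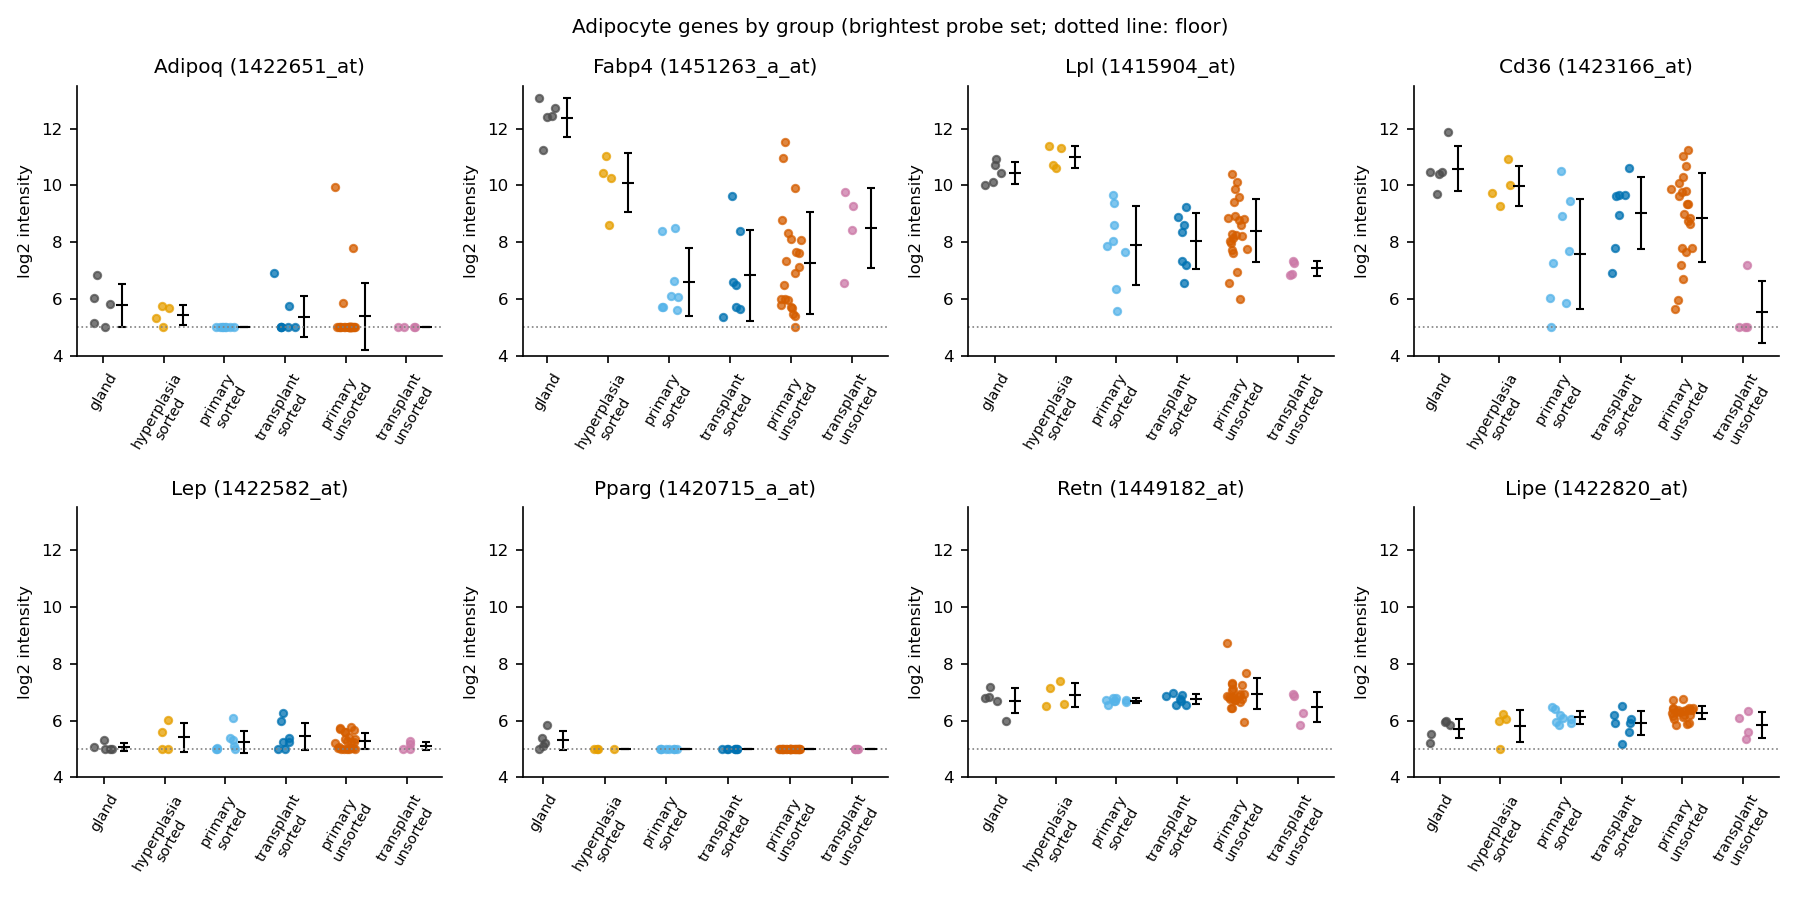
Log2 intensity of the brightest probe set of each measured member in every replicate (points, 1 colour per group), with mean and SD in black; the dotted line is the floor of 5. Fabp4 stands between 11.24 and 13.09 in glands and at a median of 7.03 in unsorted primary tumors, while Lep, Pparg and, apart from a few tumors, Adipoq stay near the floor in all groups.

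The promoter, from 250 bases before to 50 bases after the transcription start, is given for some members with matches to common promoter elements marked. RefSeq's table for GRCm38.p6 matched 8 of the 10 members with 11 start sites, and had no entry for Fabp4 or Lpl. Shown are Adipoq, which was read in single tumors, Cd36, which fell in unsorted transplants, and Lep, a fat cell hormone that stayed near the floor. Capitals mark exact matches, on either strand, to 5 elements: the box TATAAA near which transcription often starts, the box CCAAT, the core TTNNGCAA bound by the adipogenic C/EBP factors, the nuclear receptor half-site AGGTCA and the GC-rich box GGGCGG.
Adipoq, chr16:23146286-23146585, plus strand: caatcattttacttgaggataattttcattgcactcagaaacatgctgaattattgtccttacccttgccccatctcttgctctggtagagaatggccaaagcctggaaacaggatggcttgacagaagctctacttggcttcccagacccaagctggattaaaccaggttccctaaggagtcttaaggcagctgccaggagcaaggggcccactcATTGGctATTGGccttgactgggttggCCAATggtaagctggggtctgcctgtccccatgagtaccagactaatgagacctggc
Cd36, chr5:17835847-17836146, minus strand: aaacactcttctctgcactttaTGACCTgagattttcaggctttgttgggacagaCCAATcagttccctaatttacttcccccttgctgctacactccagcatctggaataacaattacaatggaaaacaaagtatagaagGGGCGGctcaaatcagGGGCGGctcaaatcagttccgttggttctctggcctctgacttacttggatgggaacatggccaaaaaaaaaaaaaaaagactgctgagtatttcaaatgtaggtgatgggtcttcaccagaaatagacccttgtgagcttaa
Lep, chr6:29059971-29060270, plus strand: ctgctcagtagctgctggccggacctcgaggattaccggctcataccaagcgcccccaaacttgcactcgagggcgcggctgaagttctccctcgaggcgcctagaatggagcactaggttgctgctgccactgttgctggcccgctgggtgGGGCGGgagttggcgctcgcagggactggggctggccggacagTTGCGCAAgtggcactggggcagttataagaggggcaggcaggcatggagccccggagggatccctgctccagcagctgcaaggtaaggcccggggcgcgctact
The Adipoq window held 3 CCAAT matches, the first 34 bases before the start, and no other of these elements. Cd36 held 1 CCAAT match, 1 half-site on the opposite strand and 2 GC boxes. Lep held 1 GC box and a C/EBP core 55 to 48 bases before the start, where the same bases match on both strands. Over all 32851 promoters of the table, on either strand, CCAAT was found in 37.4%, the GC box in 35.7%, the half-site in 16.3%, the TATAAA box in 13.6% and the C/EBP core in 10.8%. The tandem AGGTCANAGGTCA, which contains the half-site and is the form that PPARγ with its partner RXR binds, was in 0.0396% of promoters and in none of the 11 member windows. A match is a run of letters and not a measured site.

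The first comparison set whole tumors against whole glands. On the brightest probe set of each gene Fabp4 fell 39.8-fold, Lpl 4.39-fold and Cd36 3.49-fold, while Adipoq, Lep and Retn did not pass the test. Of the 14 member probe sets tested, 9 fell and 1 rose. Over all 25979 probe sets 22.6% fell and 28.3% rose in this comparison. The median difference was -1.68 over the member probe sets and 0.10 over all tested. Several of the 14 probe sets read the same gene and are not independent. With the brightest probe set of each gene 3 of 7 members fell and 1 rose, where 21.8% of all genes fell and 30.7% rose. The medians were then -0.50 over the members and 0.13 over all genes. In whole tissue, fewer cells of a type and less RNA per cell cannot be told apart.

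The intracellular carrier Fabp4 showed the widest separation. In glands 1 to 5 its brightest probe set (1451263_a_at) read 12.42, 13.09, 12.45, 11.24 and 12.73 (log2), with a mean of 12.39 ± 0.69 (SD, n = 5). In 22 unsorted primary tumors it ran from 5.00 through a median of 7.03 to 11.52, with a mean of 7.27 ± 1.80 (SD). Only tumor C117T3, at 11.52, reached into the gland range, and 1 tumor, D254T1, was at the floor. The fitted difference was -5.32 ± 0.77 (SE; adjusted p = 1.64e-07). A probe set of like brightness, 1417023_a_at, gave -5.45 ± 0.83 (adjusted p = 4.73e-07), and both dimmer ones were above the floor in all 5 glands and in 1 of 22 tumors each, with no overlap between the groups. The dimmer ones passed the filter mainly through the glands, so their calls add no separate support.

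Lpl, the lipase that feeds fat cells from the blood, fell on both of its probe sets. Its brighter one (1415904_at) read 10.71, 10.94, 10.44 and 10.11 in glands 1 to 4, was slightly lower in gland 5, and read 6.01 to 10.39, median 8.27, in tumors. Tumors C117T3 (10.39) and B459U (10.11) lay within the gland range and the other 20 lay below it. The difference was -2.14 ± 0.51 (SE; adjusted p = 0.000501) and -1.79 ± 0.41 (adjusted p = 0.000306) on 1431056_a_at.

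Cd36 overlapped far more. Its brightest probe set (1423166_at) read 10.41, 11.87, 10.46, 9.69 and 10.47 in glands and 5.66 to 11.23, median 9.16, in tumors. Tumors C117T1 (11.23), D254T2 (11.03) and D254T1 (10.70) were the highest and lay above 4 of the 5 glands. D254T1 was the tumor with Fabp4 at the floor. The difference of -1.80 ± 0.76 (SE) had an adjusted p of 0.044, which ranged from 0.0207 to 0.14 over 63 alternatives and passed in 52. Without gland 1, 3 or 5 the adjusted p was 0.0648 to 0.0722, and without gland 2 the difference was -1.48 (adjusted p = 0.14). On the dimmer 1450884_at Cd36 fell by 2.02 ± 0.49 (adjusted p = 0.000617, passing in all 61 alternatives that could test it), and on 1450883_a_at the difference was -1.56 ± 0.80 (adjusted p = 0.1).

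The hormones gave no call. Adipoq averaged 5.78 ± 0.74 (SD, n = 5) in glands and 5.39 ± 1.19 (n = 22) in tumors, a fitted difference of -0.50 ± 0.49 (SE; adjusted p = 0.407). Lep was at most 5.77 in the tumors (difference 0.20 ± 0.18, adjusted p = 0.354). Retn averaged 6.69 ± 0.44 in glands and 6.95 ± 0.53 in tumors (difference 0.19 ± 0.24, adjusted p = 0.527).

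The lipase gene Lipe was read in opposite directions by its 2 probe sets. On 1422820_at it read 5.99, 5.86, 5.54, 5.20 and 5.95 in glands and 5.84 to 6.77, median 6.33, in tumors, and rose by 0.57 ± 0.18 (SE; adjusted p = 0.0058). On 1432180_at it read 6.15, 5.55, 5.88, 5.00 and 6.59 in glands, was above the floor in 4 of 22 tumors, and fell by 0.77 ± 0.19 (adjusted p = 0.00059). With the floor at 100 the rise was 0.01 (adjusted p = 0.66), without gland 4 it was 0.45 (adjusted p = 0.0503), and with the probe sets averaged the difference was -0.10 (adjusted p = 0.47), so no direction is given for the gene.

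**Figure D2:**
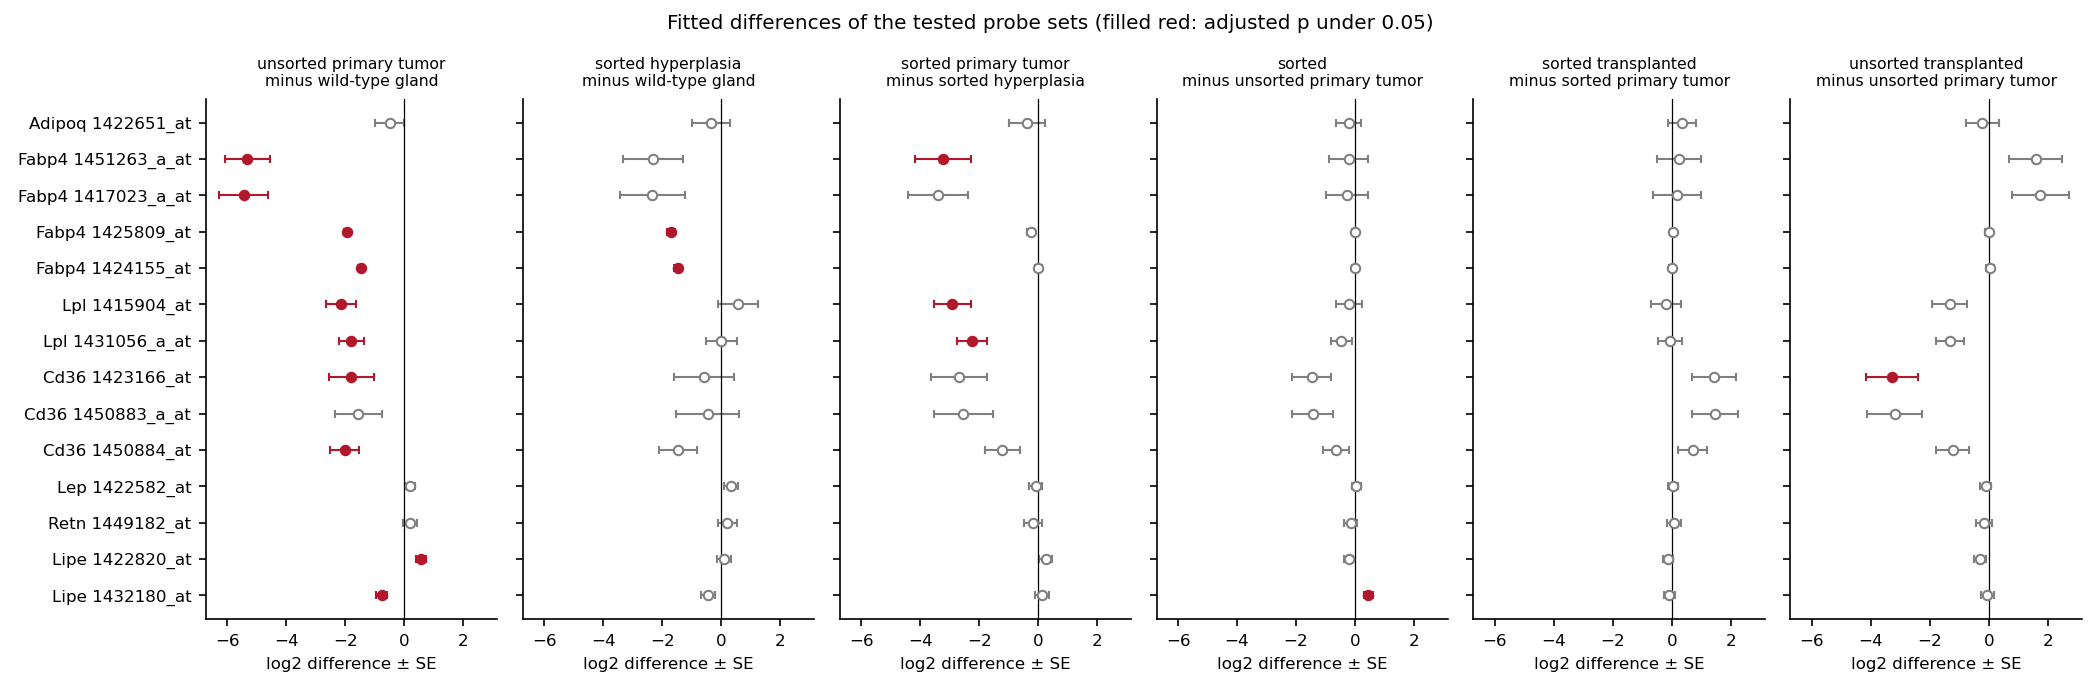
Fitted log2 differences with SE for the 14 tested probe sets in the 6 comparisons; filled red points have an adjusted p under 0.05 over all 25979 probe sets. Fabp4 is furthest to the left in tumor against gland, at -5.32 and -5.45, and Cd36 1423166_at is the filled point in the unsorted transplants, at -3.28.

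Sorted hyperplastic cells were then set against whole glands. Of the 14 member probe sets 2 fell, both of Fabp4 and both dim, where 10.2% of all probe sets fell and 10.2% rose. Both were above the floor in all 5 glands and in few replicates of the other groups, so they entered the test mainly through the glands. Their fall from glands was therefore close to given in advance and adds no separate support. Probe set 1425809_at read 5.68, 5.00, 5.34 and 5.00 in hyperplasia against 6.31 to 7.48 in glands (difference -1.70 ± 0.13, adjusted p = 3.07e-13). Probe set 1424155_at was at the floor in all 4 hyperplasias, at least 2.78-fold below the gland mean (adjusted p = 2.36e-11). Glands had an SD of 0.45 on 1425809_at and 0.56 on 1424155_at, and every other group had at most 0.33. The SE pools all 6 groups, most of them at or near the floor, so SE and adjusted p overstate the precision for both probe sets. The bright Fabp4 probe set read 10.43, 8.62, 11.05 and 10.25, below every gland, but its difference of -2.30 ± 1.02 had an adjusted p of 0.102. Without hyperplasia replicates 1 and 2 both calls held (-1.79 ± 0.16 and -1.48 ± 0.17, adjusted p = 4.11e-11 and 5.26e-08), while the number of all probe sets called went from 5292 to 1718, and to 3508 without replicate 1 alone.

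Lpl and Cd36 were not called in hyperplasia. Lpl (1415904_at) read 10.61, 11.37, 11.30 and 10.73, with replicates 2 and 3 above every gland (difference 0.56 ± 0.68; adjusted p = 0.607). Cd36 (1423166_at) read 10.94, 9.75 and 9.27 in hyperplasias 1, 3 and 4, with hyperplasia 2 between the first and the second of these (difference -0.59 ± 1.01, adjusted p = 0.735). The dimmer Cd36 probe set 1450884_at averaged 6.59 ± 0.42 (SD, n = 4) in hyperplasia and 8.05 ± 0.87 (n = 5) in glands. Its difference of -1.46 ± 0.65 had an adjusted p of 0.105, and passed with a floor of 100 (0.00343) and with only these groups in the fit (0.0361). Without hyperplasia replicates 1 and 2 the Lpl difference was 0.58 and the Cd36 differences -1.07 and -1.44, none called. Adipoq read 5.74, 5.00, 5.32 and 5.68, within the gland range. In the same comparison 10 of 11 endothelial markers fell and 6 of 10 macrophage markers rose, and the macrophage marker mean was 9.42 to 10.54 in hyperplasia against 7.90 to 8.92 in glands. Without hyperplasia replicates 1 and 2 these counts were 2 of 11 and 2 of 10. The part of these cell types in the member values was not tested.

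Within the lacZ-positive sort, the primary tumor fractions read lower than the hyperplasia fractions for Lpl and, on 1 probe set, for Fabp4. Of the 14 member probe sets 3 fell and none rose, where 2.01% of all probe sets fell. Lpl (1415904_at) read 8.59, 7.66, 9.39, 9.66, 8.05, 6.36, 7.88 and 5.59 in sorted primary tumors 1 to 8, all below the lowest hyperplasia at 10.61. The difference was -2.91 ± 0.63 (SE; 7.51-fold; adjusted p = 0.00385) and on 1431056_a_at -2.25 ± 0.51 (adjusted p = 0.00607). Fabp4 (1451263_a_at) read 5.71, 8.39, 6.64, 8.51, 6.11, 6.08, 5.71 and 5.63, also without overlap, and fell by 3.24 ± 0.95 (adjusted p = 0.0462); 1417023_a_at gave -3.39 ± 1.02 (adjusted p = 0.0563). Cd36 read 7.68, 5.00, 8.91, 7.27, 5.87, 9.46, 10.50 and 6.02 in the same tumors, which overlap the hyperplasias (difference -2.68 ± 0.94, adjusted p = 0.108).

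These calls depend on the hyperplasia arrays. The number of all probe sets called was 766, and 210, 350, 1176 or 1263 without hyperplasia 1, 2, 3 or 4. Without any 1 of the 4 hyperplasias the Fabp4 adjusted p was 0.0542 to 0.222. Without hyperplasia replicates 1 and 2 the Lpl differences were -2.92 (adjusted p = 0.124) and -2.10 (adjusted p = 0.283), and Fabp4 was -3.80 (adjusted p = 0.309). Fitted on these groups alone the adjusted p was 0.275, 0.21 and 0.109. The sorted tumors with the most Fabp4, replicates 2 and 4, also had the highest fibroblast marker means, 9.17 and 10.88 against 6.79 to 8.21 in the other 6. In the same comparison 3 of 8 fibroblast, 4 of 11 endothelial, 4 of 6 T and B cell and 1 of 10 macrophage markers fell, with medians of -2.15, -0.85, -1.20 and -1.28. The T and B cell marker mean was 5.86 to 7.79 in hyperplasia and 5.34 to 6.06 in sorted tumors, and the macrophage mean was 9.42 to 10.54 and 7.15 to 10.24. Without hyperplasia replicates 1 and 2 the counts were 1, 4, 0 and 0, where 0.431% of all probe sets fell. Their part in the Fabp4 and Lpl values was not tested.

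Between sorted and unsorted primary tumors, 1 of the 14 probe sets was called and the others did not pass the test. Lipe 1432180_at was higher in sorted tumors by 0.45 ± 0.16 (adjusted p = 0.0344), where 10.6% of all probe sets were higher. It read 5.65, 6.31, 5.79 and 5.56 in sorted tumors 1 to 4 and 5.00 in sorted tumors 5 to 8. The spiked-in controls of the same arrays averaged 11.22, 11.46, 10.92 and 10.60 in the first 4 and 9.92 to 10.10 in the other 4, and their part in this value was not tested. Without any 1 of sorted tumors 1 to 4 the adjusted p was 0.0562 to 0.155, and without sorted tumor 2 the difference was 0.33. Fabp4 differed by -0.22 ± 0.67 (adjusted p = 0.84), Lpl by -0.21 ± 0.44 (adjusted p = 0.769) and Cd36 by -1.47 ± 0.66 (adjusted p = 0.0951). Adipoq was at the floor in all 8 sorted primary tumors and above it in 3 of 22 unsorted ones. Of the marker lists, 7 of 10 macrophage and 2 of 8 fibroblast markers were higher in sorted tumors (medians 1.14 and 1.17). Lower were 4 of 7 luminal and 2 of 8 alveolar epithelial markers (medians -0.69 and -0.55). Over all probe sets 10.6% were higher and 15.3% lower. The part of these cell types in the member values was not tested.

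Among sorted cells of transplants against primary tumors no member probe set was called lower or higher, and limma called 0 of all 25979 probe sets (0%); at an unadjusted p under 0.05 there were 484 lower and 576 higher probe sets and no member. Adipoq was above the floor in 2 of the 7 sorted transplants, at 5.74 in replicate 2 (D279T2P2) and 6.90 in replicate 4 (F402TP2). These were also the sorted transplants with the most Fabp4, at 8.41 and 9.63, against 5.35 to 6.61 in the other 5. Their fibroblast marker means were 8.33 and 9.22, and that of replicate 3, with Fabp4 at 6.61, was 9.21. Cd36 (1423166_at) read 6.93, 8.96, 10.60, 7.78, 9.65, 9.67 and 9.63, a difference of 1.43 ± 0.74 from sorted primary tumors (adjusted p = 1).

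In whole tissue, Cd36 fell in the transplants. Probe set 1423166_at was at the floor in unsorted transplants 1, 2 and 4 and read 7.20 in transplant 3, while every one of the 22 unsorted primary tumors was above the floor (5.66 to 11.23). The difference was -3.28 ± 0.88 (SE; 9.70-fold; adjusted p = 0.0482), the single call among the 14 member probe sets, where 0.185% of all probe sets fell. Of all probe sets called in this comparison 17.6% were lower, and 29.2% with arrays scaled to the same 75th percentile. Probe set 1450883_a_at gave -3.19 ± 0.93 (adjusted p = 0.0767), and 1450884_at was at the floor in all 4 transplants, a mean at least 2.09-fold lower (adjusted p = 0.368). The adjusted p of the call ran from 0.00486 to 0.173 over 63 alternatives and stayed under 0.05 in 25, with differences between -3.88 and -2.18; the 4 transplants come from 2 mice.

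Fabp4 was not lower in these tumors. It read 9.28, 9.77, 8.42 and 6.57 in the same 4 transplants, where the primary tumors had a median of 7.03 (difference 1.59 ± 0.89, adjusted p = 0.518). Lpl read 6.85, 7.34, 7.28 and 6.87 against a median of 8.27 (difference -1.33 ± 0.59, adjusted p = 0.341). Endothelial marker means were 6.04 to 6.25 in the transplants and 5.85 to 7.41, median 6.15, in the primary tumors. Macrophage means were 6.98 to 7.39 against 6.86 to 8.77, median 7.44. Alveolar epithelial means were 10.22 to 10.95 against 9.50 to 12.15, median 11.37. None of the 11 endothelial, 10 macrophage or 8 alveolar epithelial markers was called in this comparison. The part of these cell types in the Cd36 value was not tested.

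The Cd36 effect of transplantation in whole tissue differed from that in sorted cells by -4.70 ± 1.16 (SE), with an adjusted p of 0.0835. No member was called in this test, which was added after the data were seen, and 0.108% of all probe sets were. Leaving out 1 of 41 replicates at a time gave differences of -5.31 to -4.31 and an adjusted p of 0.04 to 0.22, under 0.05 in 4 of the 41. A difference between both settings is therefore not shown.

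Tumors with a matched transplant gave single comparisons without replication. CR115 had Fabp4 at 5.78, Cd36 at 9.33 and Lpl at 8.83 as an unsorted primary tumor. Its transplants CR115-3 and CR115-4 had Fabp4 at 8.42 and 6.57, Cd36 at 7.20 and 5.00 and Lpl at 7.28 and 6.87. F433T4, sorted before and after 1 passage, had Fabp4 at 5.71 and 5.66, Cd36 at 10.50 and 9.65 and Lpl at 7.88 and 6.58. Of tumor D279T1 the primary was unsorted (Cd36 10.08) and the transplants sorted, with Cd36 at 6.93 after 2 passages and 9.63 after 4, so sort and transplantation cannot be told apart there.

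**Figure D3:**
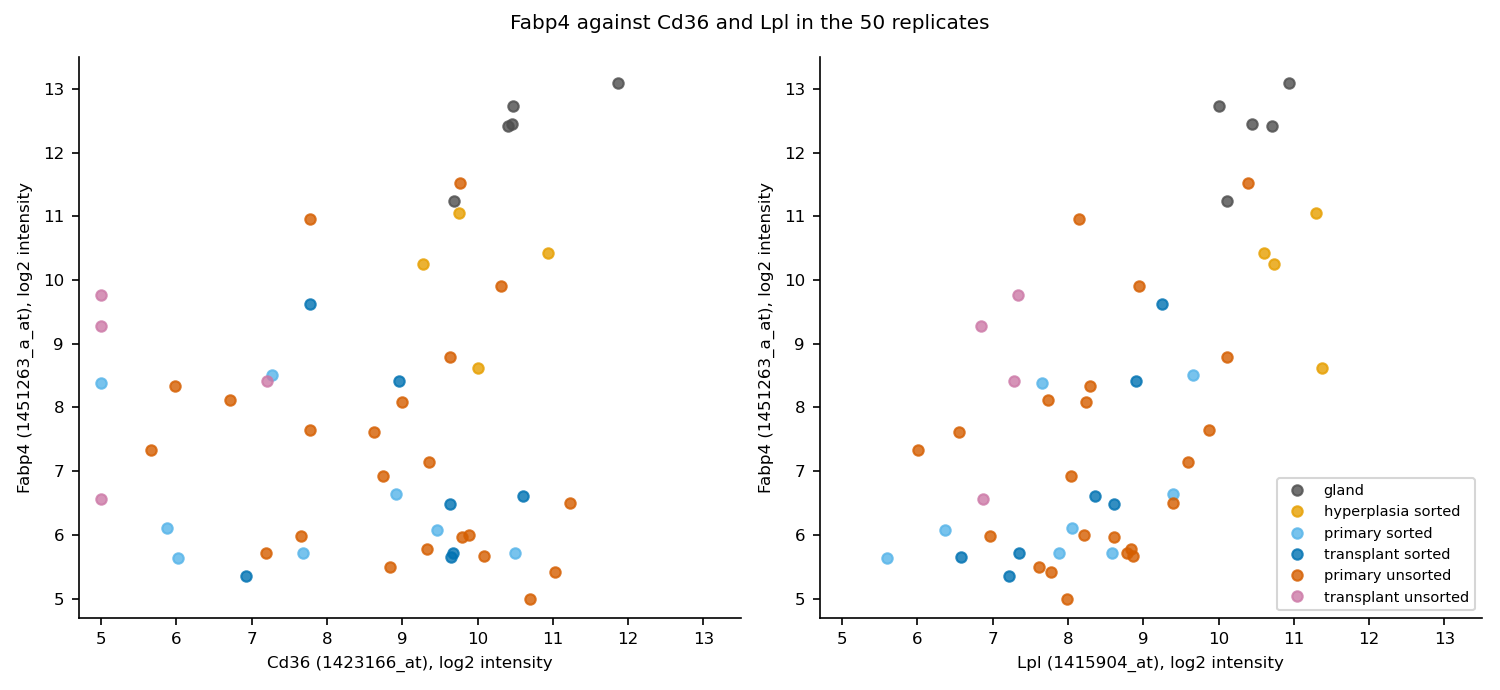
Fabp4 (vertical axis) against Cd36 (left) and Lpl (right), log2 intensity of the brightest probe sets, in the 50 replicates coloured by group. Glands lie at the top right of both panels, with Fabp4 at 11.24 to 13.09, and the unsorted transplants lie at the left edge of the Cd36 panel, with Cd36 at 5.00 in 3 of 4 and Fabp4 at 6.57 to 9.77.

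Among the unsorted primary tumors, Adipoq was above the floor in C117T3 (9.93), C395T5 (7.80) and C117T6 (5.85) and at the floor in the other 19. With the floor at 16 it was above the floor in 6 tumors, and with the floor at 100 in 2. C117T3 and C395T5 exceeded every wild-type gland, the highest of which read 6.86. Other tumors of the same mice did not share it: C117T1 and C117T5 from mouse C117 and C395T2 from mouse C395 were at the floor. Retn was highest in C117T3 (8.74) and C395T5 (7.66), followed by C231T1 (7.31), all above the gland maximum of 7.18, while C117T6 was at 6.71.

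Car3 and Cidec, fat genes outside the set, were high in some of the same tumors. Both were chosen after their values were seen and are among the genes most correlated with Adipoq over the 22 tumors. They therefore add no independent support. Car3, carbonic anhydrase 3, an abundant fat cell enzyme, read 11.55, 9.31 and 7.29 in C117T3, C395T5 and C117T6. Among the other tumors of these mice it read 6.24 in C117T5 and 5.00 in C117T1 and C395T2, and it was above the floor in 10 of the 22 tumors, with E93T1 (6.62) and C231T1 (6.54) next in order. Cidec, a lipid droplet protein of white fat, read 7.04 in C117T3 and 6.27 in C395T5, above the gland maximum of 5.19, and was at the floor in C117T6. Fabp4 was highest in the same 3 tumors, at 11.52 (C117T3), 10.95 (C117T6) and 9.90 (C395T5). Lep stayed low, at 5.35, 5.35 and 5.00 in C117T3, C395T5 and C117T6. Adh1, read beside these genes, was 6.34, 6.50 and 6.00 in the same tumors, below every gland (7.34 to 8.30). Cd36 was higher in C117T1 (11.23) than in C117T3 (9.77), and Pparg stayed at the floor.

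The other cell types differed between these tumors. C117T6 had the highest fibroblast and endothelial marker means of the 22, 10.36 and 7.41, whereas C117T3 was at 8.18 and 6.19 and C395T5 at 8.06 and 6.46. C117T3 had the lowest luminal epithelial marker mean, 10.95, of a range reaching 12.04. The part of adjoining fat pad in these samples was not tested.

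**Figure D4:**
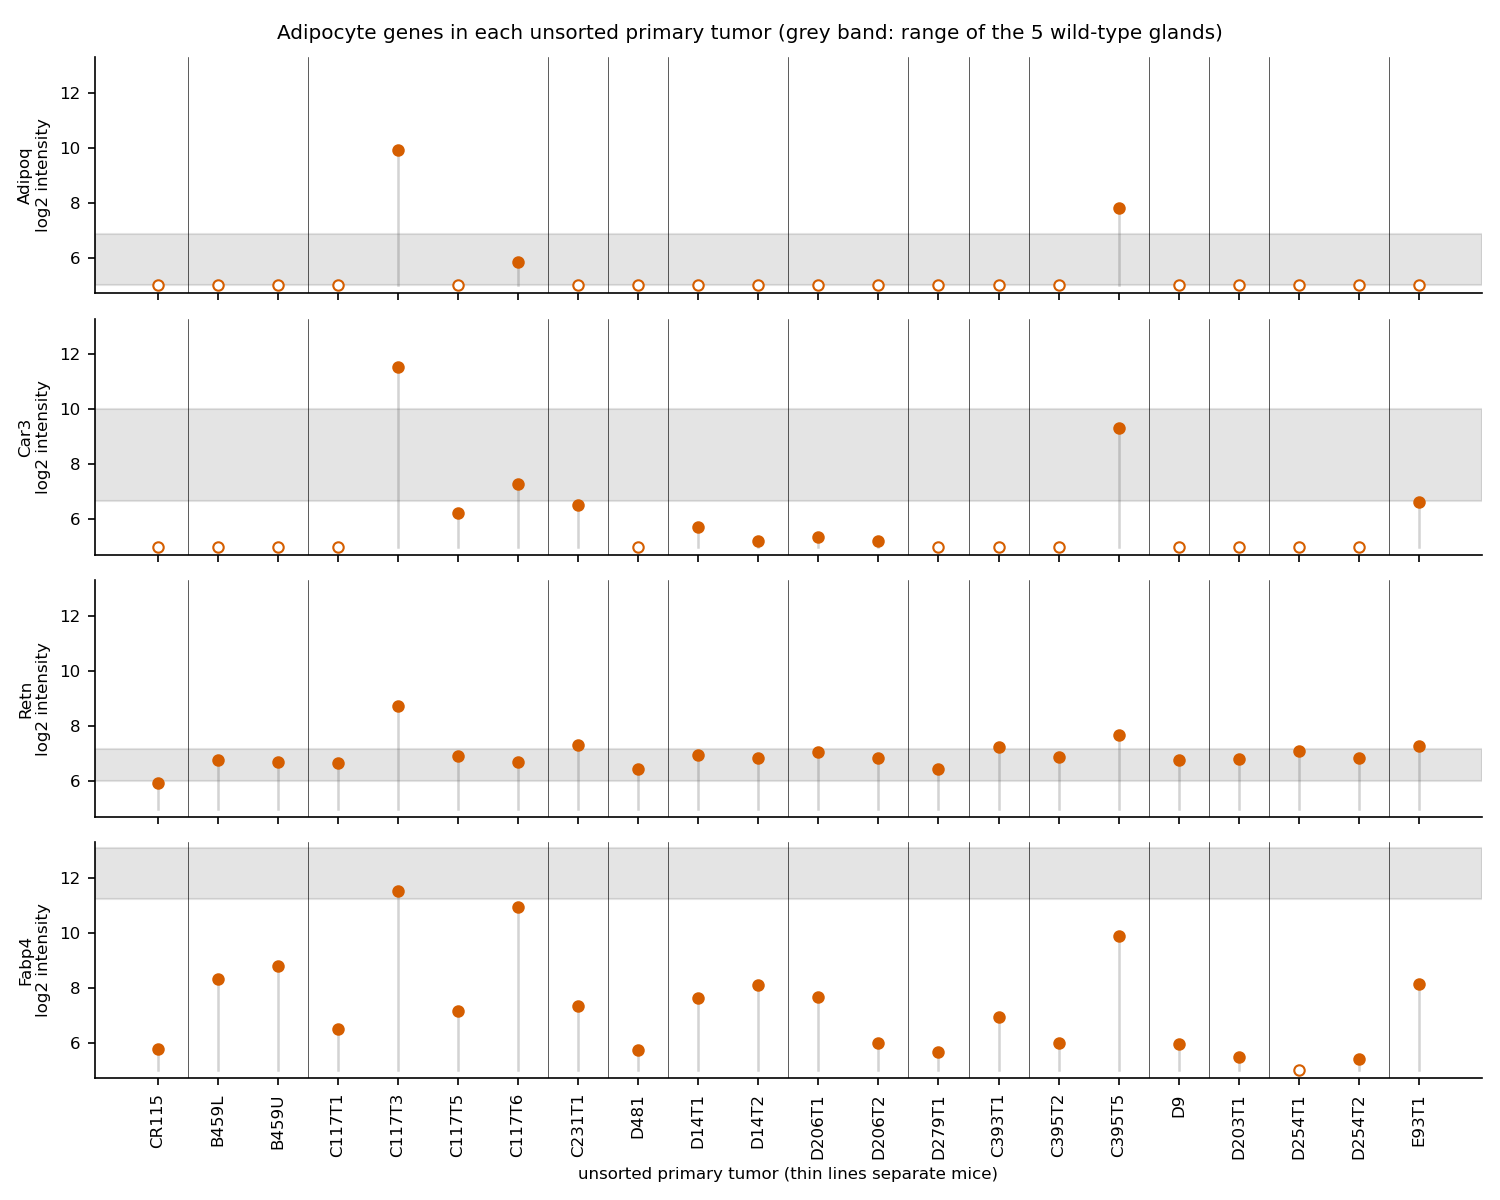
Log2 intensity of Adipoq, Car3, Retn and Fabp4 in each of the 22 unsorted primary tumors, with tumors of 1 mouse side by side; open points are at the floor and the grey band is the range of the 5 wild-type glands. Adipoq exceeds the gland range in C117T3 (9.93) and C395T5 (7.80), C117T6 lies within it at 5.85, and the other 19 tumors lie at the floor.

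Genes most like the members across the 22 unsorted primary tumors were sought among genes above the floor in no fewer than 11 of them. The highest Pearson correlations with the members' mean z-score were those of Zfp13 and Wfdc21 (both 0.69), Cubn (0.68), Zfp84 (0.67), Lacc1 (0.66), and 5 genes at 0.64, which were Cyp2e1, Pts, Osgin2, Ocstamp and an immunoglobulin kappa variable gene. A search with Adipoq alone among genes above the floor in at least 3 tumors, added after the data were seen, gave Cidec (r = 0.99), Car3 (0.94), Plin4 (0.91), Wfdc21 (0.89) and Jchain (0.84), the joining chain of antibodies made by plasma cells, with the same immunoglobulin kappa variable gene at 0.80. The T and B cell marker mean was 6.00 in C117T3, 6.03 in C395T5 and 5.73 in C117T6, where the 22 tumors ran from 5.30 to 6.03 with a median of 5.40. The correlations with Adipoq rest on the 3 tumors with Adipoq above the floor. That of Cidec rests mainly on C117T3 and C395T5, since Cidec was at the floor in C117T6. Tumors of a mouse are not independent. Correlations of Adipoq over mice are not given, since 12 of the 14 mice were at the floor in every tumor.

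Fabp4, Lpl and Cd36 were also set against the marker lists over the 14 mice, 24 relations in all, added after the data were seen. None passed after Benjamini-Hochberg adjustment, the lowest adjusted p being 0.139 for Pearson's r and 0.213 for Spearman's rho. The lowest raw p was that of Lpl with skeletal muscle markers, at r = -0.75 (permutation p = 0.00669, adjusted p = 0.139; rho = -0.35, permutation p = 0.226, adjusted p = 0.543), and r was -0.37 without the 2 mice farthest from the median. Fabp4 had r = 0.65 with the fibroblast mean (permutation p = 0.0122, adjusted p = 0.139; rho = 0.58, permutation p = 0.0327, adjusted p = 0.262), and 0.46 without the 2 farthest mice. Its r with the endothelial mean was 0.63 (permutation p = 0.0189, adjusted p = 0.139; rho = 0.53, permutation p = 0.056, adjusted p = 0.269), and 0.35 without the 2 farthest mice. Fabp4 had r = 0.57 with T and B cell markers (permutation p = 0.0272, adjusted p = 0.139; rho = 0.41, permutation p = 0.146, adjusted p = 0.445), and 0.18 without the 2 farthest mice. Its r with basal markers was -0.54 (permutation p = 0.0419, adjusted p = 0.139, rho = -0.67, permutation p = 0.0109, adjusted p = 0.213), and -0.63 without the 2 farthest mice. For luminal markers r was -0.56 (permutation p = 0.038, adjusted p = 0.139, rho = -0.64, permutation p = 0.0178, adjusted p = 0.213), and -0.43 without the 2 farthest mice. For alveolar markers r was -0.28 (permutation p = 0.335, adjusted p = 0.503, rho = -0.20, permutation p = 0.484, adjusted p = 0.686), and -0.03 without the 2 farthest mice. Lpl had r = 0.55 with basal markers (permutation p = 0.0465, adjusted p = 0.139, rho = 0.13, permutation p = 0.669, adjusted p = 0.803), and 0.07 without the 2 farthest mice. Cd36 had r = 0.57 with luminal markers (permutation p = 0.035, adjusted p = 0.139; rho = 0.55, permutation p = 0.0448, adjusted p = 0.269), and 0.52 without the 2 farthest mice. Cd36 had r = 0.10 with the endothelial mean (permutation p = 0.729, adjusted p = 0.781; rho = -0.05, permutation p = 0.856, adjusted p = 0.915), and 0.12 without the 2 farthest mice.

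The other genes of fat metabolism did not move as 1 block between glands and unsorted primary tumors. With the brightest probe set of each gene, 21.8% of all 14451 tested genes fell and 30.7% rose, with a median difference of 0.13. List counts use this probe set alone. Some genes had other probe sets called in the direction opposite to the brightest one. These were 1 lower for Elovl6, 1 higher for Slc2a4, 1 higher for Ghr and 2 lower for Lepr. No list median given here changed sign under quantile normalization or 75th percentile scaling. Fatty acid synthesis, a pathway shared by fat cells and milk-producing epithelium, had 8 of 9 genes higher and none lower (median 1.29), among them Thrsp, a lipogenic regulator (3.35 ± 0.68 SE, adjusted p = 5.41e-05), and Scd2, a desaturase (3.11 ± 0.36, adjusted p = 1.42e-09). In the same comparison 6 of 8 alveolar epithelial markers rose and none fell. Fat uptake and triglyceride synthesis had 8 of 15 genes lower and 2 higher (median -0.50). In this list the caveolar protein Cav1 fell by 3.20 ± 0.40 (adjusted p = 5.84e-09) and the Lpl inhibitor Angptl4 fell by 2.84 ± 0.38 (adjusted p = 2.97e-08), while Fabp5, the epidermal-type relative of Fabp4, rose by 1.55 ± 0.31 (adjusted p = 4.74e-05) and the fatty acid transporter Slc27a1 by 0.42 ± 0.15 (adjusted p = 0.0215).

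Lipid droplet and lipolysis genes split, with 4 of 8 tested genes higher and 2 lower (median 0.25). Abhd5, the co-activator of the fat cell triglyceride lipase, rose by 2.35 ± 0.44 and its inhibitor G0s2 by 1.85 ± 0.68 (adjusted p = 1.6e-05 and 0.0211). Aoc3, an amine oxidase of fat and smooth muscle cells, fell by 2.52 ± 0.28 and the phosphodiesterase Pde3b by 0.62 ± 0.25 (adjusted p = 3.93e-10 and 0.0377). Among 14 adipogenic regulators 4 fell and 2 rose (median -0.06): Ebf1 fell by 3.30 ± 0.25 and Ebf2 by 1.89 ± 0.28 (adjusted p = 7.38e-15 and 1.91e-07), early B cell factors that act in fat precursors, and the PPARγ partner Rxra rose by 1.77 ± 0.24 and the lipogenic factor Srebf1 by 1.59 ± 0.30 (adjusted p = 4.56e-08 and 1.82e-05).

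Of 12 other white fat markers 3 fell and 2 rose (median 0.15). Car3 averaged 8.41 ± 1.25 (SD, n = 5) in glands and 5.87 ± 1.66 (n = 22) in tumors and fell by 2.71 ± 0.70 (adjusted p = 0.00112), and Lpar1, a lysophosphatidic acid receptor, fell by 1.90 ± 0.24 (adjusted p = 1.32e-08). Nnat, neuronatin, rose by 1.87 ± 0.71 and Fam13a by 0.53 ± 0.17 (adjusted p = 0.0254 and 0.00837). Of 8 brown fat genes 2 fell and 1 rose (median 0.31): Otop1 fell by 1.80 ± 0.31 and the fatty acid elongase Elovl3 fell by 0.69 ± 0.17, while the coactivator Ppargc1a rose by 0.92 ± 0.22 (adjusted p = 4.32e-06, 0.000582 and 0.000408). Among 6 genes for the response to fat hormones and insulin, the insulin receptor substrate Irs1 rose by 1.88 ± 0.36 and the adiponectin receptor Adipor2 by 0.81 ± 0.21 (adjusted p = 3.06e-05 and 0.00144). None of the 6 fell on its brightest probe set (median 0.27). The leptin receptor Lepr was not called on that probe set (0.23 ± 0.24, adjusted p = 0.433), while 2 other Lepr probe sets were called lower.

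In the other comparisons fewer genes of these lists were called. In sorted hyperplasia against glands, where 10.3% of all genes fell and 10.9% rose on the brightest probe set, 7 of 15 uptake and triglyceride synthesis genes fell and 1 rose (median -0.62, against 0.05 over all genes), and 1 of 9 fatty acid synthesis genes rose. Without hyperplasia replicates 1 and 2, 1 of the 15 fell and none rose (median -0.50), and 1 of the 9 rose. Of all probe sets 3.6% fell and 3.01% rose in that setting. Among sorted cells no gene of the 7 lists was called between transplants and primary tumors. Among unsorted tumors the only one was Ebf2, higher in transplants by 1.23 ± 0.32 (adjusted p = 0.0381), where 0.72% of all genes rose. It was above the floor in 2 of the 4 transplants, and the adjusted p was 0.0563 under quantile normalization and 0.0508 under 75th percentile scaling.

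**Figure D5:**
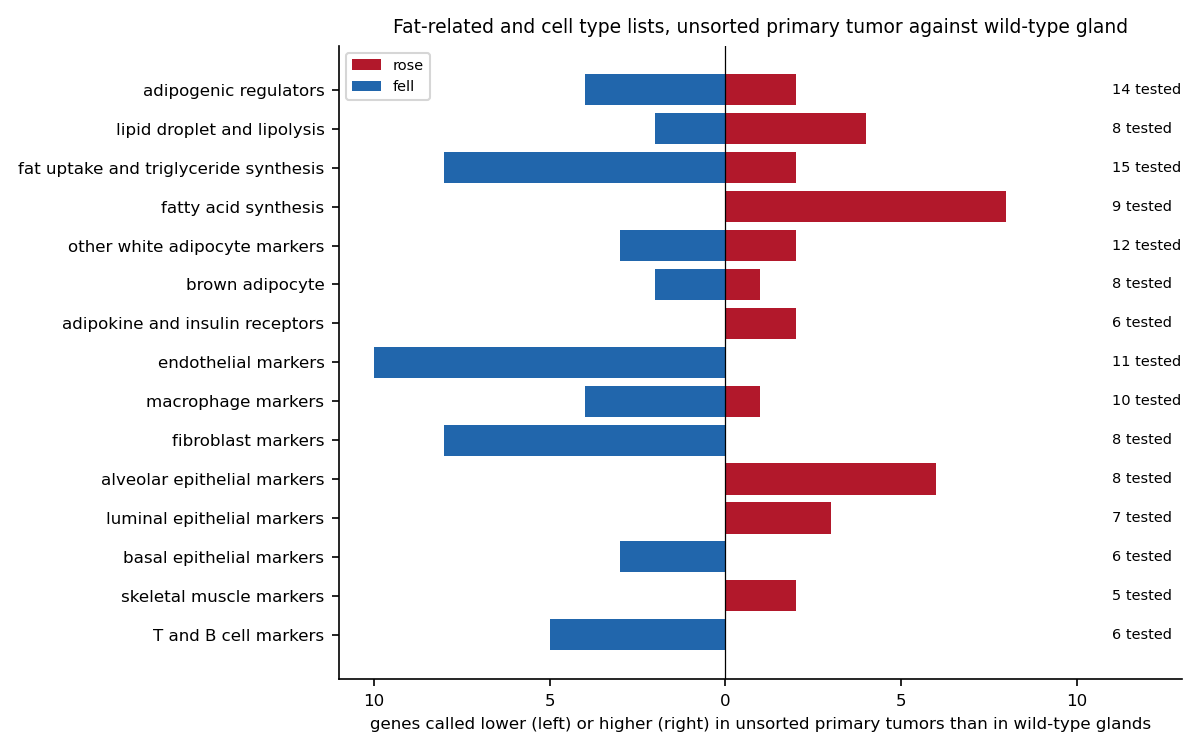
Number of genes called lower (left) or higher (right) in unsorted primary tumors than in wild-type glands for the 7 fat-related lists and the 8 cell type marker lists; the number tested stands at the right. Fatty acid synthesis (8 higher of 9) and alveolar epithelial markers (6 higher of 8) point right, and endothelial (10 lower of 11) and fibroblast markers (8 lower of 8) point left.

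Endothelial and fibroblast markers were also lower in unsorted tumors than in glands, while macrophage markers were mixed and alveolar epithelial markers were mostly higher. Of 11 endothelial markers 10 fell (median -2.65), and all 8 fibroblast markers fell (median -3.48). Of 10 macrophage markers 4 fell and 1 rose (median -0.68), and of 8 alveolar epithelial markers 6 rose and none fell (median 1.59). None of these markers was at the floor in every sample of either group. The part of these cells in the lower Fabp4, Lpl and Cd36 was not tested.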

How the data were processed

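Total RNA of sorted lacZ-positive cells and of whole tissue was hybridized to 51 Affymetrix mouse arrays, 1 sample each, per the labels' protocols. The deposited values are probe set intensity values on a linear scale; the authors' summarization and scaling are not given in the sources used here. A probe set with 2 implausibly high values was left out. Before log2 transformation intensities were raised to at least 32, which touched 37.4% of values. Platform symbols were updated by Entrez identifier, and probe sets with 1 symbol (34944) above the 40th percentile of their array on at least 4 arrays were tested (25979). The 6 groups were fitted together on 50 replicates by limma 3.58.1 under R 4.3.3 (lmFit, eBayes), taking the mouse of origin as random block with a correlation of 0.364, so fitted differences can depart from differences of means. Benjamini-Hochberg adjustment ran over all tested probe sets, and calls are at an adjusted p under 0.05. The number of arrays limits the precision, and samples of a group that share a mouse are not independent. The spread of a probe set is pooled over the groups, so where most groups lie at the floor its SE and adjusted p overstate the precision.

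The 2 arrays of tumor CR115 (r = 0.989, other pairs of the group 0.982 at most) were averaged. Where every sample of the dimmer group was at the floor, the fold of the brighter mean over the floor is a lower bound. Correlations used 100000 permutations, two-sided. Named genes were all members, up to 2 called rises and 2 called falls with the largest differences in tumor against gland from each list, and the 10 most like genes. Elovl6, Slc2a4, Ghr, Lepr and Cdh5 were named for probe sets called in opposite directions. Cidec, Car3, Plin4 and Adh1 beside Adipoq were chosen after their values were seen. Members and lists were chosen with earlier results of these data known. Where a gene has several probe sets the text names each or takes the one with the highest mean. The fit was tested on simulated data. Tables and plots used Python, numpy and pandas.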

Additional observations from a re-analysis of the deposited data

Results flagged for a closer look

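In 61 combinations of a tested member probe set and a group of 4 to 8 samples, 8 had a sample far from the others by Dixon's criterion at 95%, which chance flags in about 1 of 20 groups of evenly spread values. That share does not hold for groups otherwise at the floor, such as Cd36 1423166_at and Fabp4 1424155_at in unsorted transplants, where a single value above the floor meets the criterion by construction. In sorted transplants, Adipoq read 6.90 in replicate 4 and Fabp4 1425809_at 5.10 in replicate 2. In unsorted transplants, replicate 3 had the highest Cd36, 7.20 on 1423166_at and 7.42 on 1450883_a_at, and replicate 2 had Fabp4 1424155_at at 5.23. Lep stood at 5.31 in wild-type gland 2 and at 6.09 in sorted primary tumor 3. Lipe 1432180_at stood at 6.45 in sorted hyperplasia replicate 1, the array with the brightest spiked-in controls (12.84).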

How the results depend on the processing

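Across 63 alternatives to the processing, the calls of single member probe sets kept direction and significance in 959 of 1043 cases, 83 kept direction but lost the call, and 1 reversed: Lipe 1422820_at, tumor against gland, was -0.10 with the probe sets of a gene averaged. The Fabp4 and Lpl calls of tumor against gland held in every alternative in which the probe set was tested.

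Counts of member probe sets called moved as follows. For tumor against gland (10), taking the brightest probe set per gene gave 4 and averaging probe sets 3, by construction with fewer features. For hyperplasia against gland (2), the stricter filter and the brightest probe set gave 0, averaging 1 and fitting only the groups compared 5. For sorted tumor against hyperplasia (3), fitting only these groups gave 0 (18 of all probe sets called instead of 766), as did leaving out hyperplasia replicates 1 and 2 (118 of all). For sorted against unsorted tumor (1), a floor of 100, the stricter filter, no mouse block, array weights and both gene-level settings gave 0. For unsorted transplants (1), a floor of 100, quantile normalization, 75th percentile scaling, no filter, the stricter filter, both gene-level settings and leaving out hyperplasia replicates 1 and 2 gave 0, while no mouse block (1769 of all called instead of 273) and array weights (734) gave 2; all calls there numbered 612 with a floor of 100, 438 with only these groups, 164 with the stricter filter, and 108, 130 and 821 without unsorted transplant 1, unsorted transplant 2 or primary tumor CR115. The sorted transplants gave 0 throughout. The cause of these moves was not tested.

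Leaving out 1 replicate at a time gave 9 to 10 calls for tumor against gland, 2 to 3 for hyperplasia against gland, 2 to 4 for sorted tumor against hyperplasia, 0 to 2 for sorted against unsorted tumor and 0 to 2 for unsorted transplants. The Cd36 call there was lost without unsorted transplant 1, 2 or 4 (adjusted p = 0.157, 0.126 and 0.173), and 1450883_a_at was also called without transplant 3. No paired analysis was possible because replicate numbers only name the samples and a single tumor in each kind of sample (F433T4 sorted, CR115 unsorted) was arrayed both before and after transplantation; mouse of origin, shared by some samples, was already a random block. Leaving out unsorted primary tumors was added after the data were seen. Correlations with Adipoq and their alternatives were not run, since 12 of 14 mice were at the floor.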
